A study of Mus musculus with 20 samples.

Results

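Rosiglitazone at 3 mg/kg/day for 2 days, the lower dose and the shorter time of the study, was set against chow in the mouse aorta. Differences were taken between 3 arrays from treated mice (pools A, B and C) and 3 from chow controls (pools A, B and C). These 6 of the 20 arrays in the series were taken by the dose, time and control named in the sample labels. The spread behind each SE and p-value was estimated over all 20 arrays. Each array held biotin-labelled RNA pooled from 8 aortas on an Affymetrix chip of the mouse genome, and n therefore counts pools. The treated mice were adult C57BL/6J mice that ate chow containing rosiglitazone, and the controls were C57BL/6J mice that ate standard chow. Sets beside them were 3 pools given 10 mg/kg/day for 2 days, 3 pools given 3 mg/kg/day for 14 days, and 3 pools of untreated wild-type littermates of P465L PPARγ knock-in mice, which ate standard chow and whose background strain is not given in the sources used here. An age beyond adult, the sex and any batch are likewise not given. All treated groups share the same 3 chow pools. The spread estimate also held P465L PPARγ knock-in pools A, B and C, and pools A and B given 10 mg/kg/day for 14 days.

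Rosiglitazone is a thiazolidinedione that binds and activates PPARγ, a nuclear receptor that pairs with an RXR receptor on DNA and switches on genes of fatty acid uptake, storage and use. PPARγ is best known as the master regulator of fat cells, and it also acts in the endothelium and smooth muscle of the vessel wall. The aorta lies in perivascular fat, which in the mouse thorax is of the brown, heat-producing kind, so a pool of aortas can carry fat cell RNA.

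The arrays read as aorta. Acta2, the smooth muscle actin, had signals of 156984, 130003 and 121159 in treated pools A, B and C, against 117968, 117116 and 100906 in chow pools A, B and C, on the scale of the deposited signals, in which every array has a 2% trimmed mean of 1500. Fat cell RNA was in every pool: Adipoq, the fat cell hormone adiponectin, had signals of 79369, 31840 and 50339 in treated pools A, B and C and of 31584, 33892 and 18240 in chow pools A, B and C. Pearson's r between pools of a group, across genes, which are not independent replicates, was 0.9642 to 0.9723 in the treated group and 0.9765 to 0.9829 in chow. Median signals ran from 321.3 to 450.7 over all arrays, and the number of arrays limits the precision.

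No single gene passed the test between the treated and the chow pools. With limma on log2(signal + 72), 0 of 11081 genes reached an adjusted p under 0.05, and the smallest adjusted p was 0.302. At an unadjusted p under 0.05 there were 978 genes (8.83%), against 554 that this threshold gives when no gene differs, and these were 490 higher (4.42%) and 488 lower (4.4%) in treated pools. The 3 treated pools lay above all 3 chow pools for 564 genes (5.09%) and below all 3 for 766 genes (6.91%). The median difference over all genes was -0.02 on the log2 scale, and 45.5% of genes had a difference above 0. When each of 22519 probe sets was tested as its own feature, 0 passed and 1886 had an unadjusted p under 0.05. Leaving out treated pool B or chow pool A gave the few calls. Without treated pool B, 3 genes passed, all higher in the treated pools: Cmbl (log2 difference 1.76, adjusted p = 0.0307), Angptl4 (1.86, adjusted p = 0.0327) and Ppargc1a (1.85, adjusted p = 0.0327). Without chow pool A, Col1a1 (0.67, adjusted p = 0.045) passed, as did Zfp691 (2.13, adjusted p = 0.045), a gene named after its values were seen. Without chow pool C, 630 genes were left at an unadjusted p under 0.05.

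The 20 genes with the smallest unadjusted p were 10 that stood higher and 10 that stood lower in the treated pools. In all 20 the pools did not overlap, which a choice by smallest p favours but does not force. Their adjusted p was 0.302 throughout. Of 14 other probe sets above the level for testing (a signal of 352), for 11 of these genes, 13 differed with the same sign. Probe sets below that level were not counted. The values below are described without a verb of change because none passed.

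**Figure D1:**
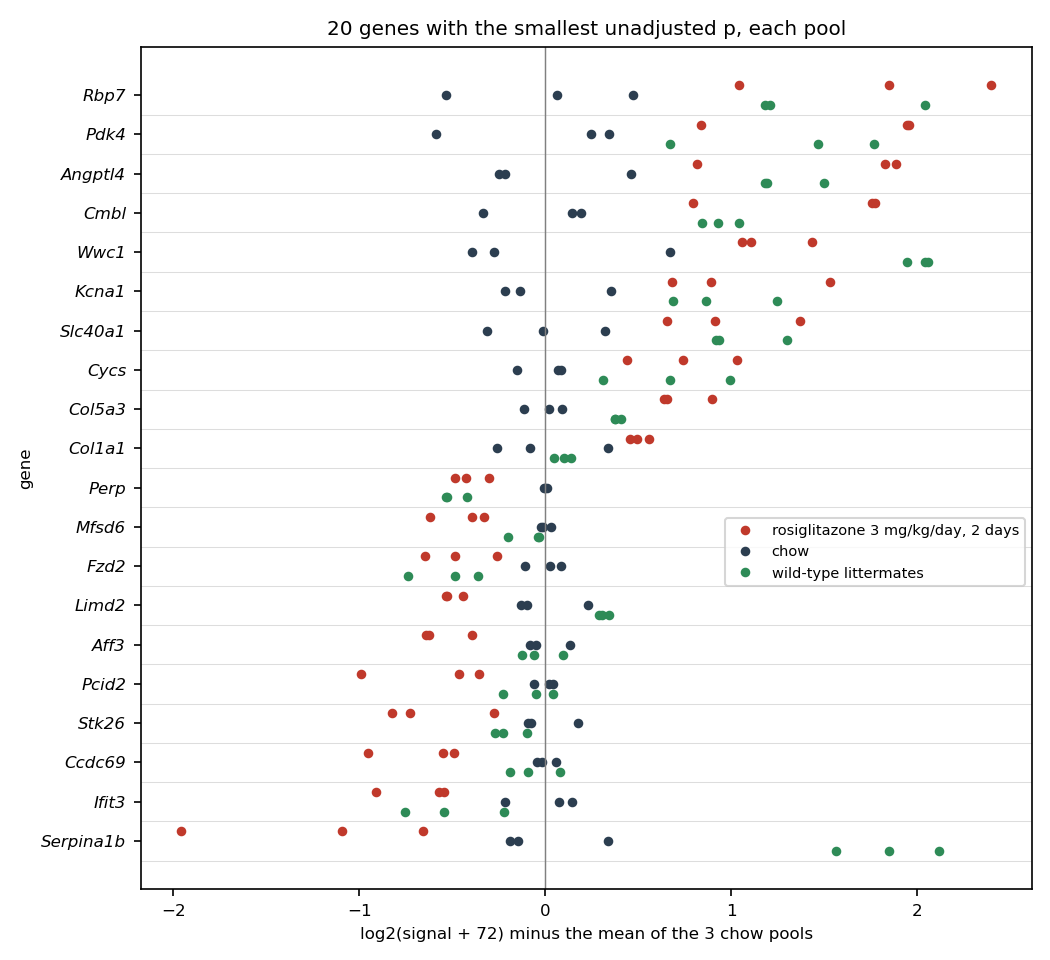
Each point is 1 pool of 8 aortas, with the chow mean of the gene set to 0 on a log2 axis, for treated pools, chow pools and untreated wild-type littermates from top to bottom of each row. In the 10 genes at the top the treated pools lie to the right of chow and in the 10 below to the left, and for Angptl4, Pdk4 and Cmbl 2 of the 3 treated pools stand well to the right of the third.

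On the higher side, Angptl4, a secreted protein that restrains lipoprotein lipase, had signals of 6750, 3181 and 6493 in treated pools A, B and C, against 2475, 1520 and 1486 in chow pools A, B and C, a log2 difference of 1.51 ± 0.31 (SE). Pdk4, the kinase that shuts off pyruvate dehydrogenase, had signals of 18136, 8390 and 18293 in treated pools and of 5941, 5531 and 3077 in chow pools, a log2 difference of 1.58 ± 0.38 (SE). For both genes treated pool B lay nearer to chow than pools A and C did. Cycs, the cytochrome c that carries electrons in mitochondria, had signals of 90893, 60148 and 74076 in treated pools against 47049, 46637 and 39881 in chow pools, a log2 difference of 0.74 ± 0.18 (SE).

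Rbp7, a retinol-binding protein of small-vessel endothelium and fat, had signals of 1276, 697.8 and 1903 in treated pools A, B and C, against 319.8, 446.6 and 186.7 in chow pools A, B and C. Its log2 difference of 1.76 ± 0.42 (SE) was the largest of these 20, and its lowest treated pool was B. Its chow pools A and C were under 352, the level for testing, which applied to the mean over all arrays. Cmbl, a hydrolase, had the smallest p of all genes, with signals of 2714, 1342 and 2687 in treated pools and of 861.6, 828.6 and 574.9 in chow pools, a log2 difference of 1.44 ± 0.28 (SE). Slc40a1, the iron exporter ferroportin, had a log2 difference of 0.98 ± 0.23 (SE), Kcna1, a potassium channel subunit, of 1.03 ± 0.25 (SE), and Wwc1, a Hippo pathway scaffold, of 1.20 ± 0.29 (SE). These 3 are dim genes, with signals of 353.1 to 1078 in the treated pools and of 136.9 to 483.8 in chow pools.

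Upstream sequence is shown for Cd36, Pdk4 and Rbp7, whose treated pools lay above all chow pools, since PPAR and RXR receptors bind paired copies of the half-site AGGTCA. Each run is the 250 bases before the RefSeq gene start, 5′ to 3′ on the gene's strand, in GRCm38.p6, and capitals mark AGGTCA or its reverse complement TGACCT.
Cd36 (chr5:17835897-17836146, minus strand): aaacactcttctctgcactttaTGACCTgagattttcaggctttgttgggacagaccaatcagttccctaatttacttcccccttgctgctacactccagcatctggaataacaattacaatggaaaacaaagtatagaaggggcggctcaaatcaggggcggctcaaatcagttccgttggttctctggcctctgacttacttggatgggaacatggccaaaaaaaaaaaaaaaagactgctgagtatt
Pdk4 (chr6:5496279-5496528, minus strand): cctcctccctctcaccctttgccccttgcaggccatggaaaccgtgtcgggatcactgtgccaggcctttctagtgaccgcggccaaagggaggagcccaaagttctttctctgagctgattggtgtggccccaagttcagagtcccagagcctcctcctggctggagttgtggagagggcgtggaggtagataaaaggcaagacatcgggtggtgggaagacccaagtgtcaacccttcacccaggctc
Rbp7 (chr4:149454969-149455218, minus strand): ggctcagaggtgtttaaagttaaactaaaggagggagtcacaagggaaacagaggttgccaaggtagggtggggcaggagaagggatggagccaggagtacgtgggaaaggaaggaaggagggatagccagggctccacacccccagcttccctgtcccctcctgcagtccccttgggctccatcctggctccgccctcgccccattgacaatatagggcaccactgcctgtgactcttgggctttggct
Cd36 holds 1 half-site, whose first base is at -228 from the gene start, and Pdk4 and Rbp7 hold none in this window. Of the 30 tested PPAR target genes, 24 had a promoter in the RefSeq table and 7 of them (29.2%) held the half-site on either strand, against 12.8% of 8982 tested genes and 15.8% of all 27025 genes of that table. Of the 20 genes with the smallest p, 13 had a promoter there and 1 (7.69%) held it. A direct repeat of the half-site spaced by 1 base was in 0 of the 24 and in 11 of the 27025. A match is a description of these letters, not a binding site, and no match says only that the letters are not in this window.

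The remaining higher genes were 2 collagens. Col1a1, the main chain of type I collagen, had signals of 48972, 50161 and 52473 in treated pools A, B and C, against 45133, 33729 and 29771 in chow pools A, B and C, a log2 difference of 0.50 ± 0.12 (SE). Col5a3, a minor fibril collagen chain, had signals of 866.6, 877.3 and 1048 in treated pools and of 570.8, 485.8 and 539.6 in chow pools, a log2 difference of 0.73 ± 0.15 (SE). In these 2 genes treated pool B was as high as pool A, unlike in the lipid genes.

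On the lower side, Fzd2, a Wnt receptor, had signals of 8807, 7547 and 6718 in treated pools A, B and C, against 10775, 9792 and 11208 in chow pools A, B and C, a log2 difference of -0.46 ± 0.11 (SE). Perp, a membrane protein of cell junctions, had signals of 7301, 7973 and 7014 in treated pools and of 9833, 9894 and 9799 in chow pools. Its chow pools lay close together. Ifit3, induced by interferon, had a log2 difference of -0.68 ± 0.16 (SE). The others were Mfsd6 (-0.45), a transporter-like protein, Aff3 (-0.55), a nuclear factor, Ccdc69 (-0.67), Limd2 (-0.50), Stk26 (-0.61), a kinase, and Pcid2 (-0.60), a part of the mRNA export machinery. Limd2 turned to 0.24 when all its probe sets were averaged. Serpina1b, a liver antitrypsin with near-identical copies that share probe sequence, had a log2 difference of -1.23 ± 0.30 (SE) at signals of 70.0 to 278.0 in treated pools, partly at the offset of 72. These treated signals were all under 352, the level for testing.

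Untreated wild-type littermates put part of this list inside the range of untreated aorta. Of the 20 genes, 9 had all 3 treated pools beyond the littermates on the same side as beyond chow, 10 overlapped the littermates, and 1 lay beyond them on the other side. Over all genes, 171 of the 564 that lay above chow (30.3%) and 225 of the 766 that lay below (29.4%) were also beyond the littermates on the same side. Col1a1 was among the 9, with littermate signals of 39307, 38214 and 36769, and so was Col5a3, with 709.4, 726.5 and 709.7. Angptl4 had littermate signals of 4152, 5156 and 4119, inside the treated range of 3181 to 6750. Pdk4 had littermate signals of 12990, 16060 and 7455, and Cycs of 70603, 88320 and 54992, both overlapping the treated pools. Wwc1 was the gene beyond them on the other side, with littermate signals of 1072, 1056 and 982.4, above the treated pools. The littermates were other mice in another experiment, so strain, litter and experiment cannot be told apart in this difference.

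Lipid genes that PPAR receptors control stood higher as a group, and chow pool C and treated pools A and C carried much of it. In the list of 36 PPAR target genes of lipid handling, 31 were measured and 30 tested, 0 passed, all 30 had a log2 difference above 0 (28 without treated pool A), and their median was 0.75, against -0.02 over all genes. An unadjusted p under 0.05 was met by 20 on the higher side and 0 on the lower, against 4.42% and 4.4% of all genes, and 9 had higher pools that did not overlap, against 5.09% of all genes. The count of 20 was 8 without treated pool A, 23 without pool B and 13 without pool C. It was also 8 without chow pool C, when 26 of the 30 stayed above 0 and the median was 0.52.

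Uptake and binding proteins were among them. Cd36, the fatty acid translocase, had signals of 15511, 7546 and 16942 in treated pools A, B and C, against 6551, 6916 and 3775 in chow pools A, B and C, a log2 difference of 1.17 ± 0.32 (SE, adjusted p = 0.332 in limma). Fabp4, which ferries fatty acids inside fat cells and capillary endothelium, had signals of 146543, 89342 and 115618 in treated pools and of 75843, 78852 and 47529 in chow pools, a log2 difference of 0.80 ± 0.21 (SE, adjusted p = 0.302). For both genes the lowest treated pool was B and the lowest chow pool was C. Fabp5, its epidermal relative, had a log2 difference of 0.77 ± 0.23 (SE), and Lpl, the lipase that frees fatty acids from circulating fat, of 0.73 ± 0.30 (SE), with overlapping pools for both. Gpihbp1, which holds that lipase on capillary endothelium, is not in the PPAR target list. It had signals of 3959, 1340 and 3022 in treated pools against 1245, 1054 and 803.5 in chow pools.

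Storage and glycerol genes followed the same pools. Pck1, which makes the glycerol backbone from pyruvate in fat, had signals of 18824, 6094 and 17305 in treated pools A, B and C, against 6553, 6067 and 2338 in chow pools A, B and C. Treated pool B thus lay inside the chow range, and the log2 difference was 1.46 ± 0.43 (SE, adjusted p = 0.356). Cidec, a lipid droplet protein, had a log2 difference of 0.87 ± 0.41 (SE), with overlapping pools.

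Acaa1b, a thiolase of peroxisomal fat breakdown with a close relative in Acaa1a, had signals of 7034, 1601 and 2660 in treated pools A, B and C, against 1100, 1575 and 632.3 in chow pools A, B and C, a log2 difference of 1.53 ± 0.46 (SE, adjusted p = 0.356). The pools did not overlap, but treated pool B lay just above chow pool B. In the peroxisome list, 20 of 23 tested genes had a difference above 0 and 0 passed. The median was 0.31 (0.20 without treated pool A). At an unadjusted p under 0.05, 10 genes were higher and 1 lower, against 4.42% and 4.4% of all genes. Ehhadh, an enzyme of the same pathway, had a log2 difference of 0.88 ± 0.26 (SE), Ephx2, an epoxide hydrolase, of 0.84 ± 0.25 (SE), and Abcd2, a transporter of very long fatty acids, of 1.26 ± 0.36 (SE). For these 3 genes all treated pools lay above all chow pools.

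Among the receptors and their partner proteins, Ppara and the coactivator Ppargc1a had the largest differences named here. Pparg had signals of 2939, 903.2 and 2340 in treated pools A, B and C, against 1526, 1339 and 725.5 in chow pools A, B and C, a log2 difference of 0.66 ± 0.39 (SE, adjusted p = 0.627). Treated pool B lay inside the chow range. Ppara, the receptor of fat-burning tissues, had a log2 difference of 1.06 ± 0.33 (SE, adjusted p = 0.356), with signals of 2913, 1003 and 2331 in treated pools and of 880.2, 1085 and 704.3 in chow pools. Ppard had a log2 difference of 0.06 ± 0.23 (SE) and Rxra, the partner receptor, of 0.03 ± 0.15 (SE), and both turned below 0 when 1 pool was left out. Among coactivators, Ppargc1a, the switch for mitochondria and heat production, had signals of 1621, 501.4 and 1469 in treated pools and of 360.9, 404.8 and 359.4 in chow pools, a log2 difference of 1.36 ± 0.35 (SE, adjusted p = 0.302). Ppargc1b, its relative, had a log2 difference of 0.72 ± 0.23 (SE). Of the 15 tested receptors and coregulators, 11 had a difference above 0 and the median was 0.12 (0.04 without chow pool C).

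Fat cell markers were higher in the same treated pools, A and C, as these genes. Of 28 adipocyte markers, 26 were measured and 25 tested, 0 passed, 23 had a difference above 0 and the median was 0.43. At an unadjusted p under 0.05, 7 were higher, against 4.42% of all genes. That count was 1 without treated pool A, 14 without pool B and 1 without chow pool C. Their summed signal was 534921, 276370 and 390499 in treated pools A, B and C, against 319600, 327360 and 241799 in chow pools A, B and C. Treated pools A and C exceeded every chow pool, and treated pool B lay within the chow range. Treated pool A lay above all chow pools in 22 of the 25 markers, pool C in 18 and pool B in 4, while pool B lay below all chow pools in 8. The same counts over the 30 PPAR target genes were 27 for pool A, 25 for pool C and 11 for pool B, and over all genes 32.2% for A, 28.5% for C and 24.3% for B. Some of these markers are also PPAR targets, and Cidec is tested in both lists. Pparg, another of the markers, is in the receptor list. In pooled tissue, more fat cells and more RNA per fat cell cannot be told apart, and the part of fat content in the lipid genes was not tested.

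Among brown fat markers, too, the lowest treated pool was B by summed signal. Ucp1, the uncoupling protein that makes heat, had signals of 52526, 27065 and 47226 in treated pools A, B and C, against 22673, 15924 and 6878 in chow pools A, B and C, a log2 difference of 1.58 ± 0.46 (SE, adjusted p = 0.356). It was above all chow pools in all 3 treated pools. Slc27a2, a fatty acid transporter and ligase, had a log2 difference of 1.70 ± 0.54 (SE), with treated pool B inside the chow range. In the list, 14 were tested, 12 had a difference above 0 and the median was 0.77. At an unadjusted p under 0.05, 9 were higher, against 4.42% of all genes. That count was 3 without treated pool A, 5 without pool C and 3 without chow pool C. The summed signal was 249225, 115790 and 178036 in treated pools and 109327, 98349 and 64742 in chow pools. In the littermates it was 182527, 222626 and 122878, which overlaps the treated pools.

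**Figure D2:**
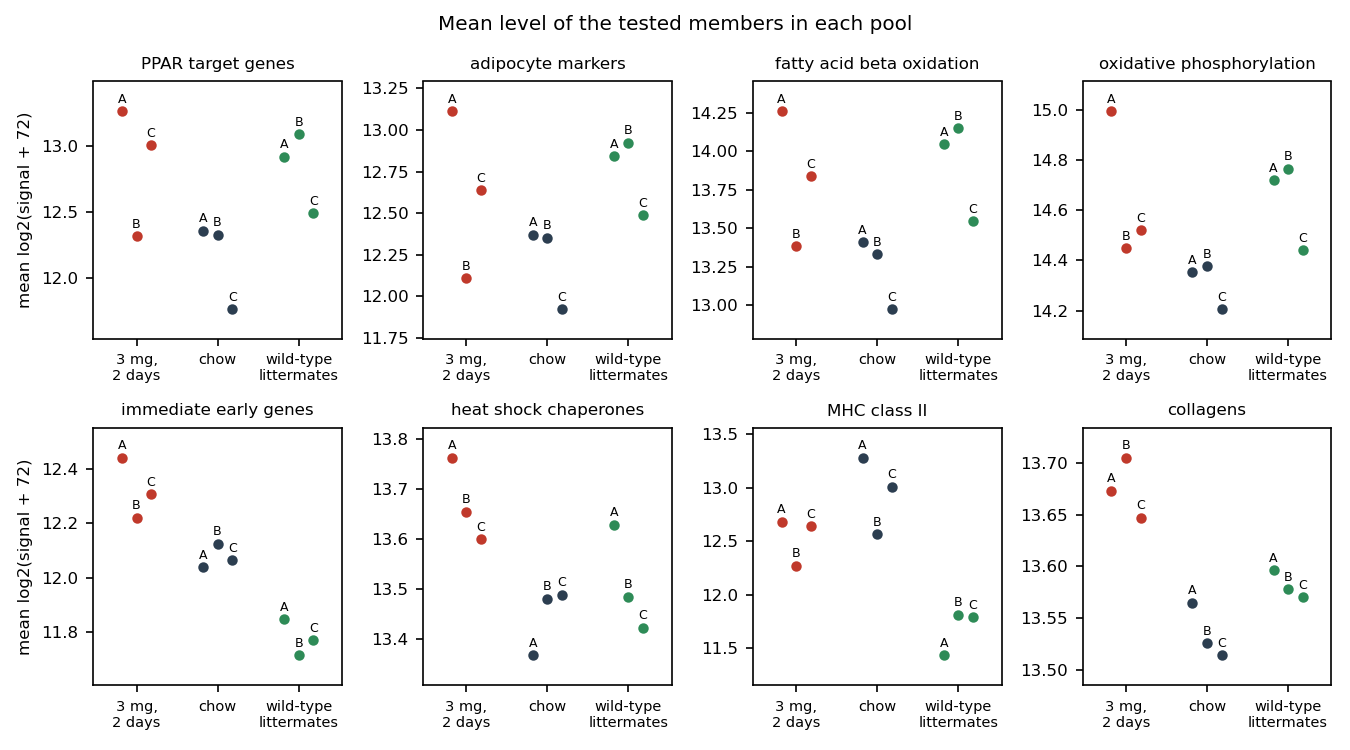
Points are the mean log2(signal + 72) of the tested members of 8 gene lists in each pool, lettered A to C, for treated mice, chow mice and untreated wild-type littermates. In the PPAR target, adipocyte and beta oxidation panels treated pool B sits at the chow level or between chow pools and the littermates reach the treated level. In the oxidative phosphorylation, immediate early, heat shock and collagen panels all 3 treated pools are above all 3 chow pools. Of these, the oxidative phosphorylation and heat shock panels have littermates that overlap the treated pools.

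Enzymes of mitochondrial fat oxidation all pointed upward. In the beta oxidation list all 20 tested genes had a difference above 0, 0 passed and the median was 0.58. At an unadjusted p under 0.05, 14 were higher, against 4.42% of all genes. That count was 3 without treated pool A and 3 without chow pool C. Etfb, which passes electrons from this pathway to the respiratory chain, had signals of 35756, 16922 and 24603 in treated pools A, B and C, against 12858, 12665 and 9158 in chow pools A, B and C, a log2 difference of 1.10 ± 0.29 (SE, adjusted p = 0.302). Hadhb, a subunit of the trifunctional enzyme, had a log2 difference of 0.68 ± 0.18 (SE), and Hadh, a dehydrogenase of the same cycle, of 0.72 ± 0.21 (SE). For these 3 genes all treated pools lay above all chow pools.

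The respiratory chain and the citric acid cycle showed smaller differences in the same direction. Of 59 tested genes of oxidative phosphorylation, 57 had a difference above 0, 0 passed, and the median was 0.32 (0.15 without treated pool A). An unadjusted p under 0.05 on the higher side was met by 29, against 4.42% of all genes, and 26 had pools that did not overlap, against 5.09% of all genes. The count of 29 was 2 without treated pool A, 47 without pool B, 40 without pool C and 8 without chow pool C. Atp5h, a subunit of ATP synthase, had signals of 66499, 58108 and 56703 in treated pools A, B and C, against 45115, 48465 and 44172 in chow pools A, B and C, a log2 difference of 0.39 ± 0.12 (SE). Cox6b1, a cytochrome oxidase subunit, had a log2 difference of 0.56 ± 0.18 (SE). In the citric acid cycle 21 of 22 tested genes had a difference above 0 and the median was 0.39 (0.22 without treated pool A). There 9 were higher at an unadjusted p under 0.05, against 4.42% of all genes. That count was 0 without treated pool A, 18 without pool B and 3 without chow pool C. Cs, citrate synthase, had a log2 difference of 0.52 ± 0.19 (SE) and Sdhb, a subunit of succinate dehydrogenase, of 0.63 ± 0.22 (SE).

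Fat synthesis was mixed. In the list of fatty acid and triglyceride synthesis 20 of 24 tested genes had a difference above 0 and the median was 0.21. Without treated pool A these were 14 genes and 0.03, and the median was 0.48 without pool B and 0.08 without chow pool C. Fasn, fatty acid synthase, had signals of 47746, 19739 and 37116 in treated pools A, B and C, against 27361, 30991 and 22492 in chow pools A, B and C, so that treated pool B was the lowest of the 6. Scd2, a desaturase, went the other way, with 12850, 13109 and 15018 in treated pools and 16000, 16957 and 22260 in chow pools, a log2 difference of -0.42 ± 0.16 (SE, adjusted p = 0.457). Cholesterol synthesis had 8 of 19 tested genes above 0 and a median of -0.05 (0.06 without chow pool C), and Sqle, squalene epoxidase, had a log2 difference of -0.45 ± 0.23 (SE). Glucose uptake and glycolysis had a median of 0.16 over 22 genes (0.03 without treated pool A, 0.29 without pool B). At an unadjusted p under 0.05, 1 of them was higher, against 4.42% of all genes.

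**Figure D3:**
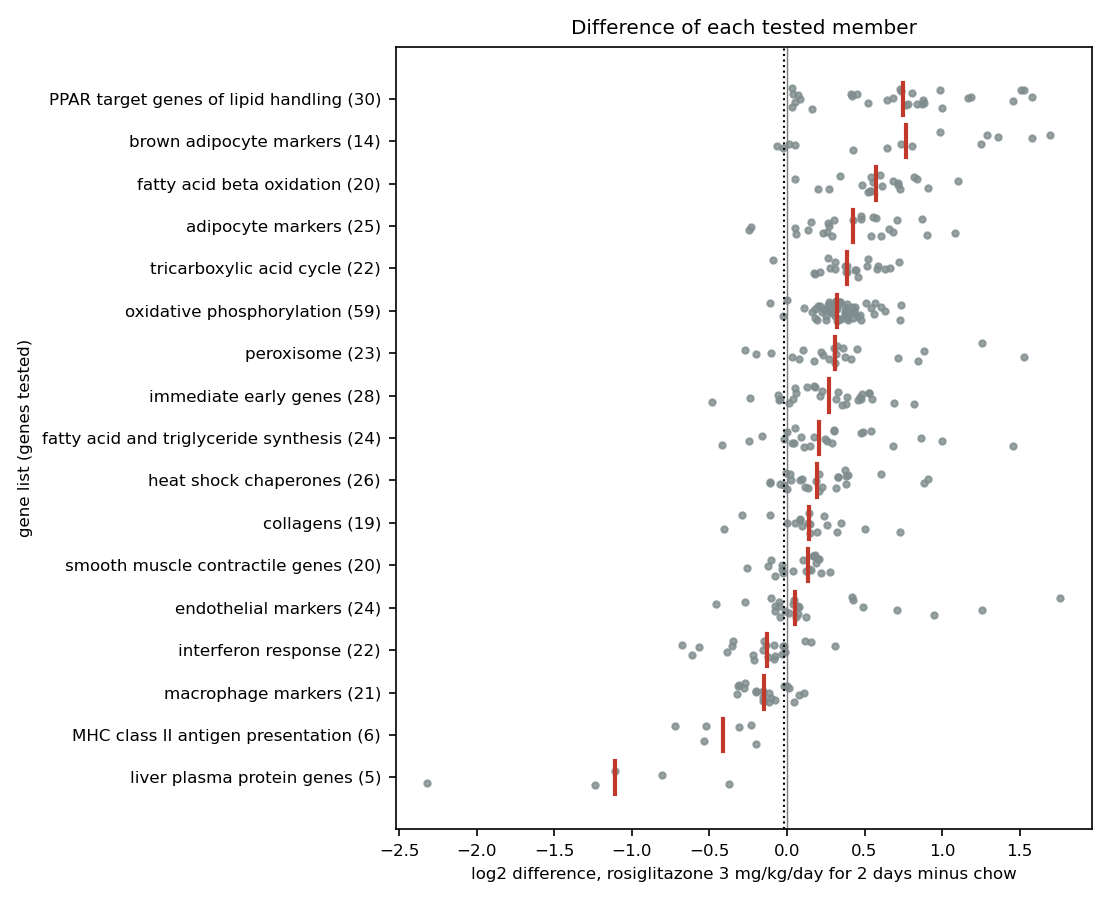
Each grey point is the log2 difference of a tested gene, treated minus chow, in 17 gene lists with the number of genes in brackets. Red bars are list medians and the dotted line is the median of all genes at -0.02. Every PPAR target and beta oxidation gene is to the right of 0, and all 6 MHC class II genes and 5 liver genes are to the left.

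For chaperones and early response genes all 3 treated pools, B included, had a higher mean level than any chow pool. Of 26 tested heat shock chaperones 20 had a difference above 0, 0 passed, 8 were higher at an unadjusted p under 0.05 (4.42% of all genes) and 8 had higher pools that did not overlap (5.09% of all genes). The median was 0.19 (0.11 without treated pool A). Hspa8, the constitutive Hsc70 chaperone, had signals of 80441, 69726 and 61902 in treated pools A, B and C, against 51134, 56824 and 53914 in chow pools A, B and C, a log2 difference of 0.38 ± 0.10 (SE, adjusted p = 0.303). Hspa1a, the inducible Hsp70, had signals of 13525, 14629 and 22605 in treated pools and of 7422, 9014 and 10022 in chow pools, a log2 difference of 0.91 ± 0.30 (SE, adjusted p = 0.412). Hspa1b is a near-identical copy, and its log2 difference of 0.88 ± 0.29 (SE) may share transcripts with it. In the littermates Hspa1a had signals of 9038, 7661 and 5830, below all treated pools. Over the list, though, the mean log2 level of 13.629 in littermate pool A was above the 13.600 of treated pool C.

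Immediate early genes, which cells switch on within minutes of a stimulus and of handling, had 23 of 28 tested members above 0, 0 passed, and the median was 0.27. An unadjusted p under 0.05 on the higher side was met by 11, against 4.42% of all genes. That count was 6 without treated pool A and 7 without chow pool A. Ccn2, connective tissue growth factor, had signals of 115837, 89671 and 107721 in treated pools A, B and C, against 65850, 77154 and 80897 in chow pools A, B and C, a log2 difference of 0.48 ± 0.12 (SE, adjusted p = 0.302). Ccn1, its relative, had signals of 36487, 18600 and 34468 in treated pools and of 17287, 14872 and 16406 in chow pools. Jund, an AP-1 subunit, had a log2 difference of 0.47 ± 0.15 (SE), and its treated pools also lay above the littermates. The list's mean log2 level was 12.44, 12.22 and 12.31 in treated pools, 12.04, 12.12 and 12.06 in chow pools and 11.85, 11.71 and 11.77 in littermates, so the untreated sets differed from each other too. How the tissue was taken from each group is not given in the sources used here, and its part was not tested.

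Endoplasmic reticulum chaperones showed no common direction, with 13 of 24 tested genes above 0 and a median of 0.01 (-0.05 without treated pool A). Pdia4, a disulphide isomerase, had signals of 1025, 1004 and 920.0 in treated pools A, B and C, against 1439, 1519 and 1305 in chow pools A, B and C, a log2 difference of -0.50 ± 0.17 (SE, adjusted p = 0.433). Atf4, the transcription factor of the integrated stress response, had a log2 difference of 0.39 ± 0.10 (SE, adjusted p = 0.302). Clock genes, which follow the hour of sampling, had 5 of 17 above 0, with a median of -0.12 that turned to 0.04 without treated pool C. Hlf, a clock output factor, had signals of 1958, 2454 and 1487 in treated pools against 3176, 4257 and 3370 in chow pools, and Cry1, a clock repressor, had a log2 difference of -0.87 ± 0.31 (SE).

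In the vessel wall the contractile genes of smooth muscle had no direction that held under all settings. Of 20 tested, 13 had a difference above 0 and the median was 0.13. At an unadjusted p under 0.05, 1 was higher, against 4.42% of all genes. Without treated pool C, 17 were above 0 and 8 higher at that p, and without pool A the median was 0.03. Quantile normalization turned the median to -0.07 and the mean of probe sets turned it to -0.09. Acta2 had a log2 difference of 0.28 ± 0.12 (SE), while its 2 other probe sets above the level for testing gave -0.18 and -0.02. Myh11, smooth muscle myosin, had a log2 difference of 0.04 ± 0.13 (SE).

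Endothelial genes split. Pecam1, an adhesion molecule of all endothelium, had signals of 13073, 12619 and 11062 in treated pools A, B and C, against 18466, 16832 and 15342 in chow pools A, B and C, a log2 difference of -0.46 ± 0.13 (SE, adjusted p = 0.356). Its treated pools were also below the littermates, at 16502, 14262 and 18608. Rbp7, Gpihbp1 and Btnl9, which endothelium of small vessels in fat and muscle expresses, were on the other side. Btnl9, a butyrophilin-like membrane protein, had signals of 819.7, 349.6 and 873.7 in treated pools and of 244.8, 355.7 and 292.2 in chow pools, a log2 difference of 0.95 ± 0.29 (SE, adjusted p = 0.356). Its chow pools A and C and its treated pool B were under 352, the level for testing. Nos3, endothelial nitric oxide synthase, had a log2 difference of -0.10 ± 0.14 (SE) and turned to 0.08 without chow pool A. Over the 24 endothelial markers 15 were above 0 and the median was 0.05 (-0.03 without chow pool C). At an unadjusted p under 0.05, 6 were higher and 2 lower, against 4.42% and 4.4% of all genes.

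The mean level of the collagens and the level of elastin were above chow in all treated pools. Of 19 tested collagen genes 16 had a difference above 0, the median was 0.14, and 6 were higher and 1 lower at an unadjusted p under 0.05, against 4.42% and 4.4% of all genes. In 7 the treated pools were above all chow pools, against 5.09% of all genes. Quantile normalization left 13 above 0, 2 higher at that p, and a median of 0.05. Col3a1, the chain of type III collagen, had signals of 115083, 105232 and 92853 in treated pools A, B and C, against 86886, 83201 and 75639 in chow pools A, B and C, a log2 difference of 0.35 ± 0.11 (SE, adjusted p = 0.356). Eln, elastin, had signals of 74302, 64923 and 72132 in treated pools and of 55932, 50774 and 54635 in chow pools, a log2 difference of 0.39 ± 0.12 (SE, adjusted p = 0.356). Its treated pools were above the littermates as well, at 64338, 62495 and 53160.

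Growth factor and Wnt modulators had a median near that of all genes, with more members lower than higher at an unadjusted p under 0.05. Of 23 tested, 8 were above 0, against 45.5% of all genes, and the median was -0.06, against -0.02 over all genes. The median was -0.11 without treated pool B and -0.04 with median centring. At an unadjusted p under 0.05 there were 1 higher and 5 lower, against 4.42% and 4.4% of all genes. Igfbp5, an insulin-like growth factor binding protein, had signals of 16330, 19525 and 18764 in treated pools A, B and C, against 26456, 23348 and 21182 in chow pools A, B and C, a log2 difference of -0.38 ± 0.12 (SE, adjusted p = 0.365). Sfrp4, a secreted Wnt inhibitor, had a log2 difference of -0.39 ± 0.10 (SE, adjusted p = 0.302). Ednrb, the endothelin B receptor, had a log2 difference of 0.42 ± 0.17 (SE) and Agtr1a, an angiotensin receptor, of 0.44 ± 0.19 (SE), in a vasomotor list with a median of -0.10 (-0.05 without chow pool C).

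MHC class II, interferon and macrophage genes leaned lower in sign, with chow pool A the highest of the MHC class II readings, and lymphocyte markers did not. All 6 tested MHC class II genes had a difference below 0, 0 passed and the median was -0.42. At an unadjusted p under 0.05, 3 were lower, against 4.4% of all genes. That count was 0 without chow pool A, 1 without treated pool B and 5 without chow pool B. In 0 of the 6 did all treated pools lie below all chow pools, against 6.91% of all genes. Treated pool B lay below all chow pools in all 6, and treated pools A and C in 1 each. H2-Ab1, a class II chain, had signals of 4554, 2877 and 4016 in treated pools A, B and C, against 9180, 4034 and 6478 in chow pools A, B and C, a log2 difference of -0.72 ± 0.23 (SE, adjusted p = 0.405). Cd74, the invariant chain, had a log2 difference of -0.52 ± 0.18 (SE, adjusted p = 0.434). Littermates were lower still, with H2-Ab1 signals of 1809, 2154 and 2134. Interferon genes had 3 of 22 above 0 and a median of -0.13 (-0.05 without treated pool B), and macrophage markers 5 of 21 and a median of -0.15 (-0.04 without chow pool A). At an unadjusted p under 0.05, 3 interferon genes and 1 macrophage marker were lower, against 4.4% of all genes. All treated pools lay below all chow pools in 1 interferon gene and 0 macrophage markers, against 6.91% of all genes. Lymphocyte markers had 6 of 9 above 0 and a median of 0.05 (-0.07 without chow pool C). Inflammatory cytokine and adhesion genes had 6 of 14 above 0 and a median of -0.13. Tlr2, a receptor for bacterial lipids, had signals of 873.5, 849.2 and 947.9 in treated pools and of 1350, 1313 and 1234 in chow pools, and Ccl9, a chemokine, had a log2 difference of 0.42 ± 0.14 (SE).

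Transcripts of neighbouring tissues varied from pool to pool. The summed signal of 16 skeletal muscle markers was 29746, 17853 and 12384 in treated pools A, B and C, against 13866, 12944 and 53252 in chow pools A, B and C. An unadjusted p under 0.05 was met by 0 of 13 tested, against 8.83% of all genes. Of 13 liver plasma protein genes measured, 5 were tested. All 5 were below 0 with a median of -1.11 (-0.74 without treated pool B), and 1 was above 0 without chow pool C. Alb, albumin, had signals of 52.6, 23.3 and 196.0 in treated pools A, B and C, the first 2 below the offset of 72, and of 208.4, 877.2 and 1412 in chow pools. All 3 treated signals were under 352, the level for testing. All 3 tested red blood cell markers were above 0, with a median of 0.57 (0.32 with the mean of probe sets). At an unadjusted p under 0.05, 1 was higher, against 4.42% of all genes. Alas2, the heme enzyme of red blood cells, had 40160, 45341 and 44829 in treated pools against 43623, 32214 and 29627 in chow pools. The part of these tissues in other results was not tested.

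Detoxification genes were mixed, with 20 of 31 tested above 0 and a median of 0.11 (0.03 without treated pool A). At an unadjusted p under 0.05, 9 were higher and 1 lower, against 4.42% and 4.4% of all genes. The counts became 2 and 3 without treated pool A and 3 and 2 without chow pool C. Gstt3, a glutathione transferase, had signals of 2174, 2881 and 2214 in treated pools A, B and C, against 3743, 3306 and 3235 in chow pools A, B and C, a log2 difference of -0.50 ± 0.13 (SE, adjusted p = 0.332). Cyp2f2, a cytochrome P450, had a log2 difference of -0.58 ± 0.30 (SE, adjusted p = 0.579), and Pon1, paraoxonase, of -0.22 ± 0.29 (SE, adjusted p = 0.868). Prdx2, a peroxide-removing enzyme, had a log2 difference of 0.36 ± 0.13 (SE).

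Set directly against 10 mg/kg/day at the same 2 days, the 3 mg/kg/day pools differed in 0 of 11081 genes by the limma test, with a smallest adjusted p of 0.174. At an unadjusted p under 0.05 there were 1481 genes, 808 higher (7.29%) and 673 lower (6.07%) at 3 mg/kg/day. The count was 599 without the 3 mg/kg/day pool A and 2370 without its pool C, and 903 without the 10 mg/kg/day pool B. Pfn1, the actin-binding profilin, had signals of 27084, 23990 and 20685 at 3 mg/kg/day, against 15462, 12725 and 15025 at 10 mg/kg/day, a log2 difference of 0.73 ± 0.14 (SE, adjusted p = 0.174). Cavin1, the caveolar coat protein, had signals of 18585, 15931 and 15186 at 3 mg/kg/day and of 8525, 9364 and 11131 at 10 mg/kg/day. Tcf25, Mapkapk2, a stress kinase, and Psmb2, a proteasome subunit, had log2 differences of 0.60, 0.55 and 0.55, each with pools above all of the 10 mg/kg/day pools.

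Pon1 had signals of 2417, 1174 and 1445 at 3 mg/kg/day, against 656.9, 534.4 and 574.7 at 10 mg/kg/day, a log2 difference of 1.35 ± 0.29 (SE, adjusted p = 0.225). Fasn had a log2 difference of 1.19 ± 0.29 (SE, adjusted p = 0.225), with 13562, 15729 and 13823 at 10 mg/kg/day, all below the 3 mg/kg/day pools. Btnl9 had signals of 819.7, 349.6 and 873.7 at 3 mg/kg/day, all below the 1041, 914.5 and 897.0 at 10 mg/kg/day, a log2 difference of -0.53 ± 0.29 (SE, adjusted p = 0.419). Rbp7 differed by -0.32 ± 0.42 (SE, adjusted p = 0.756) and Acaa1b by -0.51 ± 0.46 (SE, adjusted p = 0.624), with overlapping pools. Against the shared chow pools Rbp7 had log2 differences of 1.76 at 3 mg/kg/day (adjusted p = 0.302) and 2.08 at 10 mg/kg/day (adjusted p = 0.0326), and Acaa1b of 1.53 (adjusted p = 0.356) and 2.04 (adjusted p = 0.0473). At 10 mg/kg/day 56 genes (0.505%) passed, these among them, but the difference between the doses did not pass for either.

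Set against 14 days at the same dose, the 2-day pools differed in 0 of 11081 genes by the limma test, with a smallest adjusted p of 0.868. There were 632 genes at an unadjusted p under 0.05 (5.7%), 331 higher (2.99%) and 301 lower (2.72%) at 2 days. That number was 1154 without the 2-day pool C, when Snx30 alone passed (-0.96, adjusted p = 0.0236), and 439 without its pool A, when Rsl1d1 alone passed (0.77, adjusted p = 0.0489), both genes named after their values were seen. Fasn had signals of 47746, 19739 and 37116 at 2 days, against 11683, 17564 and 17666 at 14 days, a log2 difference of 1.09 ± 0.29 (SE, adjusted p = 0.868). Cyp2f2 had signals of 871.9, 393.2 and 604.8 at 2 days, against 249.5, 377.2 and 222.0 at 14 days, a log2 difference of 0.94 ± 0.30 (SE, adjusted p = 0.868). In both the 2-day pools lay above all 14-day pools. Cdan1 (-0.65), Yars, a tRNA synthetase (0.54), Gfpt2, of the hexosamine pathway (0.39), and Fam162a (-0.47) completed the 5 smallest p-values. PPAR targets gave medians of 0.14 for this difference and 0.16 for the dose difference. In each, 1 of 30 had an unadjusted p under 0.05, against 5.7% and 13.4% of all genes.

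**Figure D4:**
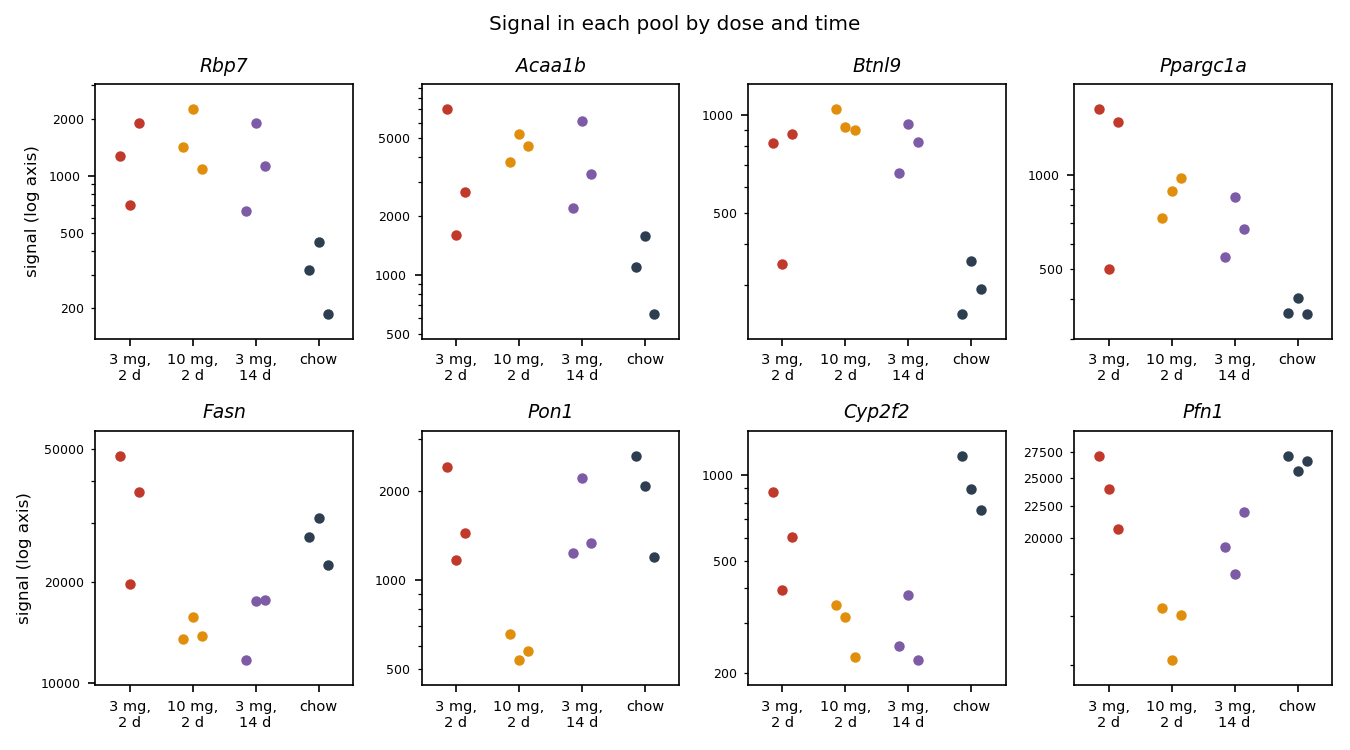
Signals on a log axis are shown for 8 genes in each pool, for 3 mg/kg/day and 2 days, 10 mg/kg/day and 2 days, 3 mg/kg/day and 14 days, and chow. For Pon1 and Pfn1 the 3 mg/kg/day pools at 2 days lie above the 10 mg/kg/day pools, and for Btnl9 they lie below them.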

How the data were processed

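RNA of 20 pools, each of 8 mouse aortas, was hybridised to Affymetrix GeneChip Mouse Genome arrays. The intensity values were deposited by the authors after MAS5, per the submitters' processing notes, whose version and detection calls are not given in the sources used here; each array has a 2% trimmed mean of 1500. Signals were taken as log2(signal + 72), where 72 is near the 20th percentile of all signals. A gene was represented by its brightest probe set with a single symbol, from the platform annotation: of 45101 probe sets, 34945 had 1 symbol, 932 several and 9160 none, and 64 were controls. Of 18193 genes, 11081 passed the 50th percentile of level (log2 8.73, a signal of 352). The level was the mean over all 20 arrays, so a gene could pass with a group below it. limma 3.58.1 in R 4.3.3 fitted 1 mean per group over all 20 arrays with a variance trend, and Benjamini-Hochberg adjustment ran over all 11081 genes at 0.05. The residual degrees of freedom were 13. The fit was tested on simulated data with genes and arrays drawn independently, so shifts shared by many genes of a pool were not covered. Lists were summarised in Python 3.11.15. The p-values measure the spread between pools, and an exact permutation test of 3 against 3 cannot go below 0.1.

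The members, gene lists and rules were chosen with earlier results of these data known. Named were the 20 genes with the smallest p, since none passed, the 3 smallest of each list, 28 chosen genes, and the 5 smallest of the dose and time differences. Alternatives covered the offset, filter, scaling, probe sets, weights, arrays fitted, a replicate block and each pool left out.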

Additional observations from a re-analysis of the deposited data

How the results depend on the processing

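The count of 0 genes between 3 mg/kg/day for 2 days and chow held under other offsets, filters, quantile normalization, median centring, the mean of probe sets, no variance trend, array weights, fewer arrays in the fit and a replicate block, and with each probe set tested apart, an alternative chosen after seeing the data along with the repeats of the gene lists. Leaving out single pools gave 0 to 3 genes for this comparison, 0 to 1 for the time difference and 0 throughout for the dose difference; with fewer arrays the cause was not tested. With the replicate block, 0 genes passed in each comparison, and 1071, 1587 and 658 had an unadjusted p under 0.05 for chow, dose and time. The labels do not say what the letters mark, and they were not taken as pairs: deviations of same-lettered pools correlated at 0.137, -0.084 and 0.130 with chow, 0.261, -0.064 and 0.184 with the 10 mg/kg/day pools and -0.290, -0.263 and -0.280 with the 14-day pools. Median centring split the genes at an unadjusted p under 0.05 into 644 higher and 353 lower, against 490 and 488 as reported. Over 140 named genes, 2446 values kept direction and side of the threshold, 4 newly passed, 0 lost a call and 28 turned sign, all far from the threshold. Under quantile normalization these were Cald1 (-0.07), Rgs5 (-0.04), Cav1 (-0.00), Myh11 (-0.20) and Gfpt2 (0.01), and under median centring Gfpt2 (0.01). With the mean of probe sets they were Limd2 (0.24), Vcl (-0.06), Cald1 (-0.09), Rgs5 (-0.02), Laptm5 (0.17), Myh11 (-0.14), Tcf25 (-0.07) and Fam162a (0.09), and with array weights Psmb2 (-0.01), Gfpt2 (0.01) and Fasn (-0.08). Without a treated pool they were Rxra (-0.11) and Myh11 (-0.08) for A, Ppard (-0.03) for B, and Cavin1 (0.01) and Gfpt2 (0.03) for C. Without a chow pool they were Tnni2 (-0.08), Nos3 (0.08) and Pon1 (0.02) for A, Rxra (-0.08) for B, and Myh11 (-0.04) and Gfpt2 (0.00) for C. Over all single pools left out, these genes ranged from -0.08 to 2.25 for Tnni2, -0.03 to 0.12 for Ppard, -0.08 to 0.16 for Myh11, -0.25 to 0.08 for Nos3, -0.53 to 0.02 for Pon1, -0.13 to 0.01 for Cavin1, -0.04 to 0.03 for Gfpt2 and -0.11 to 0.17 for Rxra. The cause was not tested. Signals near the offset of 72 limit what can be read of dim genes.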
